A study of Mus musculus with 6 samples.

Results

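The genes described here encode the proteins of the cytosolic ribosome, measured in erythroid cells of mouse fetal livers labelled Tfam KO or Tfam WT. Rows of the deposited expression table were taken by gene symbol (Rpl or Rps followed by a number with an optional a, l, x or y, together with Rplp0, Rplp1, Rplp2, Rpsa, Rpl7l1, Rpl13a and Rpl22l1) where the mean over the 6 libraries was at least 1 RPKM. RPKM divides a gene's reads by the length of its transcript and by the reads of its library, to make levels comparable between genes. In WT replicate 3 the values still shifted with transcript length, as described below. Of 82 rows with such a symbol, 80 reached this mean, out of 23094 named rows in the table, with 49 of the large subunit and 31 of the small subunit. Just outside the threshold were Rpl10l, listed at 0 in every library, and Rpl3l, listed at 0.0264 RPKM in KO replicate 1 and at 0 in the other libraries. Just inside were Rpl39l, with a mean of 1.14 RPKM, and then Rpl7l1 with 19.4 RPKM. In 6 of the 80 rows a ribosomal protein gene shared its row with another name, as Rpl34 did with the pseudogene Rpl34-ps1, and Rpl13a, Rpl17 and Rpl23a with small nucleolar RNAs of their introns. Ribosomal protein genes have many processed pseudogenes, and the way reads were divided between such copies is not given in the sources used here.

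Both groups were CD71+Ter119+ cells, sorted at embryonic day 13.5 from C57BL/6 fetal livers labelled Tfam KO (n = 3) or Tfam WT (n = 3). CD71 takes up transferrin-bound iron, Ter119 marks the red cell lineage, and Tfam encodes a protein that packages mitochondrial DNA and helps start its transcription. The labels name neither a Cre driver nor the litter of a library, nor whether each replicate was its own embryo. A p-value here therefore covers the spread among these 6 libraries, which may be technical. Tfam itself stood at 5.92, 7.22 and 6.25 RPKM in the KO libraries, against 7.22, 8.44 and 5.72 RPKM in the WT libraries. The groups overlapped (log2 fold change -0.11, 95% interval -0.52 to 0.29, exact two-sided permutation p = 0.7, where the smallest possible is 0.1), so the level of Tfam does not separate the labels, and which part of the gene was deleted is not given in the sources used here. The erythroid label could be checked on 9 marker genes, which summed to 9568 to 14352 RPKM in KO and 10959 to 15784 RPKM in WT. Markers of other fetal liver cells were low and none was listed at 0 in every library. Macrophage markers summed to 4.55 to 11.7 RPKM in KO and 12.2 to 18.7 RPKM in WT. Megakaryocyte markers summed to 26.0 to 82.8 RPKM in KO and 39.6 to 72.5 RPKM in WT, hepatocyte markers to 10.6 to 109 RPKM in KO and 28.4 to 69.9 RPKM in WT, and neutrophil markers to 6.75 to 15.4 RPKM in KO and 9.53 to 18.5 RPKM in WT. Of these 4 lists, the macrophage list was the one whose sums did not overlap between the groups. The part of such cells in the ribosomal protein values was not tested.

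The ribosome is built from a large and a small subunit, each a scaffold of ribosomal RNA that carries its own set of proteins, and most of these proteins are needed in equal numbers. Their mRNAs belong to the TOP class, which begin at a cytosine followed by a run of pyrimidines, and through this run their translation follows mTORC1 signalling. Erythroid precursors depend on ribosome supply: in humans, loss of 1 copy of any of several ribosomal protein genes causes Diamond-Blackfan anemia, in which red cell production fails while other lineages are less affected.

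The sequence around the transcription start is shown first, because the start of the mRNA is a feature that the rule for choosing genes did not use. RefSeq promoter windows of build GRCm38.p6 matched 60 of the 80 genes by symbol. The expression table was made on build mm9, and no coordinate was carried between the builds. A C followed by at least 7 more C or T, read on the coding strand within 50 bases of the annotated start on either side, was present in 51 of the 60 genes (85.0%), against 32.0% of all 27025 genes with a window. On the opposite strand the same run was found in 21.7% of the ribosomal protein genes, against 34.4% of all genes. The letters CCGGAAG, the core bound by ETS factors such as GABP, occurred on either strand between 250 bases before and 50 after the start in 41.7% of the ribosomal protein genes, against 9.93% of all genes. The YY1 core AAGATGGC occurred there in 6 of the 60, against 3.19% of all genes. These are matches of letters in a window and not measured sites. The sequences below run from 30 bases before to 30 bases after the annotated start, 5′ to 3′ on the coding strand, with the pyrimidine run in capitals. The first 7 show the run in genes described or plotted further on. The last 2, of the highest row and of a low row, hold no such run in this window. The printed genes do not give its frequency, and the 85.0% above is for the wider window. Rplp0, Rps2, Rpsa, Rps28, Rpl26, Rpl27 and Rpl36a, also named or plotted further on, hold no such run in this window either. Further genes of the family, such as Rpl12 and Rpl23, also lack it there.
Rpl11: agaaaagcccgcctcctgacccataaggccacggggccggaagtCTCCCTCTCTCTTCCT
Rpl15: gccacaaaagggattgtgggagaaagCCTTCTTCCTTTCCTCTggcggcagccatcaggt
Rpl22l1: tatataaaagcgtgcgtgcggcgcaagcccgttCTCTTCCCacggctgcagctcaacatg
Rplp2: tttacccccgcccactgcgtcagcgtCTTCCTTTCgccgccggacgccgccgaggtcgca
Rps10: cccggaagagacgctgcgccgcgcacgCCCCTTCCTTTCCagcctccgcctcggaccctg
Rps26: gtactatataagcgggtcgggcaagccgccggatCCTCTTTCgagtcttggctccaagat
Rps27: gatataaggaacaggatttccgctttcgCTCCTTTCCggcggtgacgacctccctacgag
Rpl41: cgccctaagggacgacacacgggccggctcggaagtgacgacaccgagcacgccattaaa
Rpl7l1: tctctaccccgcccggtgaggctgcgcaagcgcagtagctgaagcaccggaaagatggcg
The windows lie at chr4:136053364-136053423 on the minus strand for Rpl11, chr14:18270957-18271016 (minus) for Rpl15, chr3:28805478-28805537 (plus) for Rpl22l1, chr7:141447621-141447680 (plus) for Rplp2, chr17:27635215-27635274 (minus) for Rps10, chr10:128626477-128626536 (minus) for Rps26, chr3:90213619-90213678 (minus) for Rps27, chr10:128549139-128549198 (minus) for Rpl41 and chr17:46782627-46782686 (minus) for Rpl7l1. Counting the annotated start as position 1 with no position 0, the run began at -4 in Rpl15 and Rplp2, at -3 in Rps10, at -2 in Rps27, at 4 in Rpl22l1, at 5 in Rps26 and at 15 in Rpl11. The run was 17 bases long in Rpl15 and 8 bases long in Rps26 and Rpl22l1, and in Rpl11 it was 16 bases long up to the end of the printed window.

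Ribosomal protein mRNAs were among the most abundant transcripts of these cells. Of the 100 named rows with the highest mean RPKM, 52 were ribosomal protein rows, and 77 of the 80 had a mean of at least 100 RPKM. Together they made up 17.7%, 22.0% and 20.5% of the RPKM sum in the KO libraries, against 18.9%, 18.6% and 25.0% in the WT libraries. The share averaged 20.0% ± 2.21 in KO and 20.8% ± 3.62 in WT (SD, n = 3 each), so the groups differed by less than the spread within them. In bulk RNA, fewer cells of a type and less RNA per cell cannot be told apart.

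The median ribosomal protein row stood at 826, 1044 and 1163 RPKM in the KO libraries, against 941, 856 and 2085 RPKM in the WT libraries. WT replicate 3 was far above the other libraries, and the KO libraries overlapped the other WT libraries. No ribosomal protein row passed an adjusted p of 0.05 in limma's test of KO against WT, the adjustment running over all 8302 rows with a mean of at least 1 RPKM, of which 0.0% passed. The lowest adjusted p of a ribosomal protein row from limma was 0.909, and 0 of the 80 had an unadjusted p under 0.05, compared with 100 of the 8302 rows. The fitted log2 fold change was below 0 in 80 of 80 rows, with a median of -0.23, where 53.0% of all tested rows were below 0 and their median was -0.019. In no row did all KO libraries lie above or all lie below the WT libraries, as 2.18% and 2.36% of all tested rows did.

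**Figure D1:**
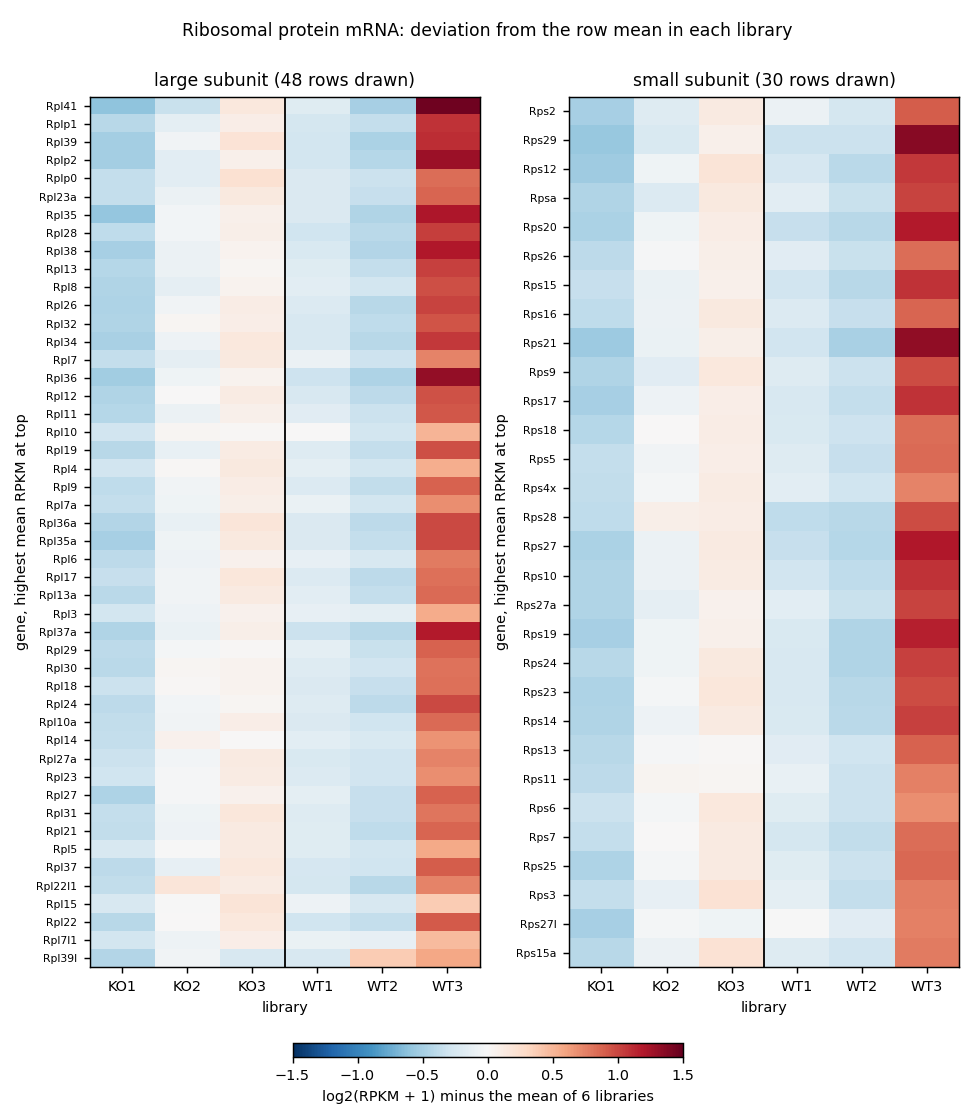
Ribosomal protein rows (78 of the 80, down the page, highest mean RPKM at the top, large subunit left and small subunit right) in each library (across, KO left of WT), coloured by log2(RPKM + 1) minus the mean of the 6 libraries. WT replicate 3 is the highest library in every row drawn, and the lowest is KO replicate 1 or WT replicate 2.

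The direction of the family rested on WT replicate 3. This library held the highest value in 80 of 80 rows, at 1.36 times (Rpl15) to 3.30 times (Rpl41) the mean of the other 5 libraries, with a median of 2.09 times. With WT replicate 3 left out, the fitted value was higher in KO in 77 of 80 rows (44.9% of all tested rows), with a median log2 fold change of 0.16 against -0.013 over all tested rows. No ribosomal protein row passed the adjusted p then either (0.012% of all tested rows did). In 2 rows, Rps28 among them, every KO library then lay above both WT libraries, which was also so in 5.42% of all tested rows, and in no ribosomal protein row did every KO library lie below them (5.9% of all). The lowest value lay in KO replicate 1 in 66 rows and in WT replicate 2 in 14. Among the 5 remaining libraries KO replicate 3 was the highest in 74 rows. With both libraries numbered 3 left out, a setting chosen after the data were seen, 64 rows were higher and 16 lower in KO, with a median of 0.044.

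**Figure D2:**
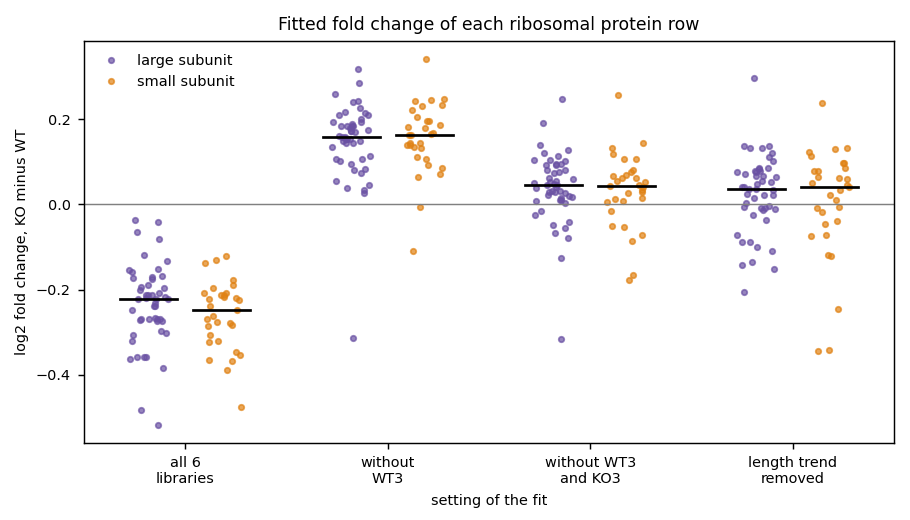
Fitted log2 fold change (KO minus WT) of each ribosomal protein row on the vertical axis, under 4 settings of the fit along the horizontal axis, with a bar at each median. The medians of the large and small subunit are -0.22 and -0.25 with all libraries, and both are 0.16 without WT replicate 3.

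Within each pair of libraries with the same number, a pairing that no label gives, the rows moved as a block. In deviations from the group means, KO replicate 1 correlated with WT replicate 2 at 0.40, above 0.17 for the libraries numbered 2. In 77 of 80 rows KO was lower than WT in pair 1, higher in pair 2 and lower in pair 3. In 2 rows, again with Rps28, KO was higher in pairs 1 and 2 and lower in pair 3. Rpl39l was lower in KO in all 3 pairs.

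Several other measures moved with the high values in WT replicate 3, and their part in them was not tested. The RPKM sum of all named rows was 814665 in that library, against 422534 to 535013 in the other 5. Precursor ribosomal RNA (Rn45s) stood at 782, 1143 and 895 RPKM in KO, against 940, 869 and 5526 RPKM in WT. Malat1, a long nuclear RNA, stood at 202, 181 and 76.5 RPKM in KO, against 158, 211 and 46.6 RPKM in WT, so both libraries numbered 3 were low. Transcript length moved with it as well. Ribosomal protein transcripts are short, with a median annotated length of 785.5 bases against 2676.5 bases over all tested rows, and 70 of the 80 fell in the shortest of 5 length groups of equal size (at most 1457 bases). WT replicate 3 exceeded the mean of the other 5 libraries by a median of 0.81 on the log2 scale in the shortest group of all tested rows and by 0.052 in the middle group, and in the longest group its median difference was -0.63. In the ribosomal protein rows WT replicate 3 exceeded the mean of the other 5 libraries by a median of 1.07. Across the 80 rows the excess was smaller for longer transcripts (Spearman rho -0.55, a description over rows that share 6 libraries). With the trend on length removed from every library, the median log2 fold change of the family was 0.038, with 51 rows higher and 29 lower in KO.

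**Figure D3:**
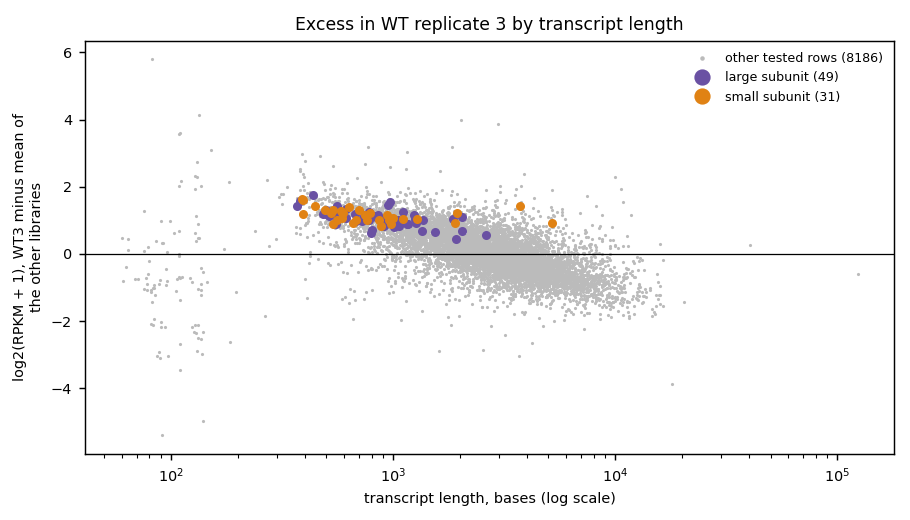
Excess of WT replicate 3 over the mean of the other 5 libraries, on the log2(RPKM + 1) scale, against annotated transcript length in bases (log axis). Each point is a tested row, and all 80 ribosomal protein rows (large and small subunit coloured) lie above 0, 70 of them among the shortest transcripts of a falling trend.

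The summed levels of the large and small subunits stayed in nearly the same proportion in every library. The summed RPKM of large subunit rows was 1.37, 1.35 and 1.35 times that of small subunit rows in the KO libraries, against 1.37, 1.34 and 1.35 times in the WT libraries. The ratio averaged 1.35 ± 0.0121 in KO and 1.35 ± 0.0134 in WT (SD, n = 3 each), also with WT replicate 3 included. Row by row, WT replicate 3 stood at a median of 2.08 times the mean of the other 5 libraries in the large subunit. In the small subunit the median was 2.22 times, and this difference was not tested. The order of the 80 levels was nearly the same in all libraries. Spearman's rho between libraries over the rows was 0.991 to 0.997 among the 5 libraries other than WT replicate 3 and 0.962 to 0.977 between that library and the rest.

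The highest row was Rpl41, which encodes the smallest ribosomal protein, at 3352, 4035 and 5663 RPKM in KO, against 4465, 3609 and 13961 RPKM in WT. Rps29, a small zinc-binding protein of the small subunit, stood at 2022, 2548 and 3150 RPKM in KO, against 2380, 2395 and 7672 RPKM in WT. In both genes WT replicate 3 stood alone, and the other WT libraries lay within the KO range. Rpl41 and Rps29 had the lowest and the third lowest fitted log2 fold change, -0.52 (SE 0.60) and -0.48 (SE 0.54), each with an adjusted limma p of 0.909, and without WT replicate 3 the values were 0.081 and 0.085. The highest row of the small subunit was Rps2, a protein of the mRNA entry site, at 2360, 2910 and 3654 RPKM in KO against 3121, 2770 and 6216 RPKM in WT, and Rps12 followed Rps29 in mean level, at 1783, 2460 and 2951 RPKM in KO against 2157, 1951 and 5370 RPKM in WT. Rpsa, known also as the laminin receptor precursor, stood at 1646, 1953 and 2492 RPKM in KO, against 2029, 1788 and 4547 RPKM in WT. Rpl39, a short protein of the wall of the exit tunnel, stood at 1705, 2323 and 2790 RPKM in KO, against 1996, 1738 and 5228 RPKM in WT. All 4 repeated the family pattern, with WT replicate 3 highest and the groups overlapping.

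The P stalk recruits the elongation factors to the ribosome and is made of Rplp0 with copies of Rplp1 and Rplp2. Rplp0 stood at 1800, 2066 and 2703 RPKM in KO, against 1990, 1843 and 4131 RPKM in WT. Rplp1 stood at 3237, 3875 and 4629 RPKM in KO, against 3580, 3368 and 9090 RPKM in WT. Rplp2 stood at 1547, 1974 and 2321 RPKM in KO, against 1814, 1633 and 5324 RPKM in WT. All 3 had a fitted value below 0 (median -0.31) with all libraries and above 0 (median 0.16) without WT replicate 3, and none passed the test. In the whole family 80 of 80 rows were below 0 and, without WT replicate 3, 77 of 80 above.

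The rows nearest to no change with all libraries were Rpl15, Rpl22l1, Rpl5 and Rpl4, all of the large subunit. Rpl15 stood at 281, 332 and 380 RPKM in KO, against 315, 281 and 434 RPKM in WT. It had the smallest spread over the 6 libraries of any ribosomal protein row (SD 0.25 on the log2 scale, against 0.76 for Rpl41, the largest). Rpl4, whose long extension reaches the exit tunnel, stood at 912, 1132 and 1235 RPKM in KO, against 1005, 920 and 1635 RPKM in WT. The log2 fold changes were -0.037 (SE 0.26) for Rpl15, -0.043 (SE 0.36) for Rpl22l1, -0.066 (SE 0.29) for Rpl5 and -0.081 (SE 0.33) for Rpl4, and each turned above 0 without WT replicate 3 (0.14, 0.32, 0.20 and 0.17).

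The lowest rows were paralogs and Rps15a. Rps15a stood at 67.0, 84.3 and 105 RPKM in KO, against 78.6, 73.3 and 155 RPKM in WT, and the length matched to it here, 5179 bases, is the longest of the family. Rpl39l, a paralog of Rpl39 known for its expression in the testis, stood at 0.535, 1.0 and 0.761 RPKM in KO, against 0.756, 1.71 and 2.11 RPKM in WT. Its log2 fold change was -0.48 (SE 0.24, adjusted p = 0.909 in limma), and it stayed below 0 without WT replicate 3 (-0.31, adjusted p = 1.0 in limma). The groups overlapped through KO replicates 2 and 3 and WT replicate 1, and at a level this low a change on the log2(RPKM + 1) scale is understated. Rpl7l1, a paralog of Rpl7, stood at 15.6, 18.03 and 20.6 RPKM in KO, against 17.8, 17.5 and 26.9 RPKM in WT. It was 0.0144 ± 0.000556 times the level of Rpl7 in KO and 0.0139 ± 0.00207 times in WT (SD, n = 3 each), so the ratio differed by less than its spread.

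Rpl22l1 is a paralog of Rpl22 that can take its place in the ribosome and that Rpl22 represses in mice. Rpl22 stood at 85.0, 114 and 127 RPKM in KO, against 92.7, 88.6 and 217 RPKM in WT. Rpl22l1 stood at 257, 376 and 361 RPKM in KO, against 275, 249 and 555 RPKM in WT. The paralog was thus the more abundant of the pair in every library, at 3.02, 3.29 and 2.83 times Rpl22 in KO, against 2.97, 2.81 and 2.55 times in WT, and the ranges overlapped. Rps27l, a paralog of Rps27 and a p53 target, stood at 165, 227 and 223 RPKM in KO, against 232, 207 and 392 RPKM in WT. Its ratio to Rps27 was 0.181, 0.190 and 0.161 in KO, against 0.233, 0.220 and 0.135 in WT, so KO lay below WT replicates 1 and 2 and above WT replicate 3. Its log2 fold change was -0.39 (SE 0.30, adjusted p = 0.909 in limma) with all libraries and -0.11 without WT replicate 3.

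Genes whose human counterparts are mutated in Diamond-Blackfan anemia were described as a group of 17, all present among the 80. None passed the test. With all libraries 17 of 17 had a fitted value below 0 (median -0.27), and without WT replicate 3 17 of 17 were above 0 (median 0.17). These genes are part of the family, where 80 of 80 rows were below 0 and, without WT replicate 3, 77 of 80 above. Rps19, the gene most often mutated in the disease, stood at 738, 992 and 1094 RPKM in KO, against 884, 761 and 2336 RPKM in WT. The groups overlapped, with WT replicate 3 highest and KO replicate 1 lowest. Rpl5 and Rpl11 join the 5S ribosomal RNA in a particle that can hold back the p53 ligase Mdm2. Rpl5 stood at 335, 394 and 435 RPKM in KO, against 347, 325 and 584 RPKM in WT. Rpl11, whose pyrimidine run is among those printed above, stood at 845, 1077 and 1199 RPKM in KO, against 1018, 912 and 2181 RPKM in WT. WT replicate 3 exceeded the mean of the other libraries by less in Rpl5 than in Rpl11. Rps26, which contacts the mRNA at the exit side, stood at 1451, 1878 and 2026 RPKM in KO, against 1692, 1513 and 3403 RPKM in WT. Rps28 stood at 1024, 1415 and 1436 RPKM in KO, against 1020, 996 and 2633 RPKM in WT, so each KO library lay above WT replicates 1 and 2 and below WT replicate 3. Its fitted value was -0.12 with all libraries and 0.34 (SE 0.24, adjusted p = 1.0 in limma) without WT replicate 3, the highest of the small subunit at that setting.

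**Figure D4:**
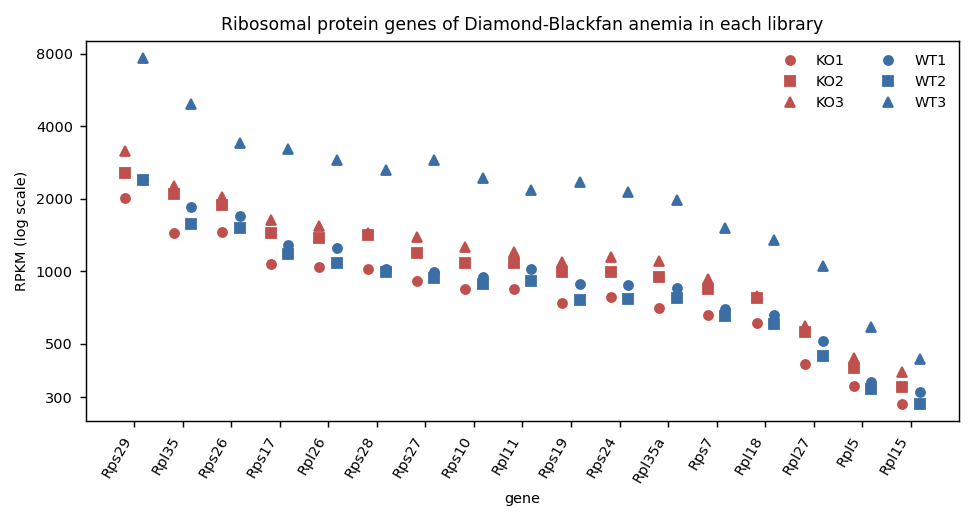
RPKM (log axis) of the 17 ribosomal protein genes linked to Diamond-Blackfan anemia, ordered by mean level, in the 3 KO libraries (red, left of each pair) and the 3 WT libraries (blue). WT replicate 3 is the highest point for every gene. The KO libraries overlap WT replicates 1 and 2 except for Rps28, where they lie above both.

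Composition within the family was compared by scaling each library to its own median ribosomal protein ratio, which takes out the variation the rows share. The median log2 fold change was then 0.012 for the large and -0.012 for the small subunit, and no row passed the adjusted p. With 41 rows higher and 39 lower in KO, the split over the family was near even, which follows from the scaling itself. In 5 rows, which included Rpl17, Rpl22l1, Rps6 and Rps7, every KO library lay above every WT library, where 0.771% of all tested rows did so. In Rpl8, Rpl11, Rpl13 and Rps27a all KO libraries lay lower, as in 2.42% of all tested rows. These shares over all rows are no measure for the family, since the scaling was set on the family itself. The sizes were small. Relative to the median RPKM of the 80 rows in each library, Rpl22l1 stood at -1.69, -1.47 and -1.69 on the log2 scale in KO, against -1.77, -1.78 and -1.91 in WT. Rps6, the small subunit protein that S6 kinase phosphorylates, stood at -0.26, -0.31 and -0.28 in KO, against -0.31, -0.32 and -0.57 in WT, and relative to that median RPKM its KO replicate 2 lay just under WT replicate 1, so its separation held for the one scaling and not for the other. Rpl8, a protein near the peptidyl transferase centre, stood at 0.36, 0.34 and 0.36 in KO, against 0.47, 0.49 and 0.44 in WT. Rps27a, made as a fusion with ubiquitin, stood at 0.04, 0.01 and 0.06 in KO, against 0.15, 0.11 and 0.17 in WT. With the length trend removed instead, 7 rows had every KO library above every WT library (Rpl18, Rpl22l1, Rpl23a, Rpl32, Rpl36a, Rps28 and Rps6, 3.27% of all rows with a length) and 0 had every KO library below (3.17%). Rpl22l1 and Rps6 stood in both sets.

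Ribosomal components outside the symbol rule followed the family. Among the 4 were Fau, which encodes a ribosomal protein fused to a ubiquitin-like protein, Gnb2l1, the scaffold protein known as Rack1, and Rpl36al. Fau stood at 797, 911 and 1126 RPKM in KO, against 882, 793 and 2396 RPKM in WT. All 4 had a fitted value below 0 with all libraries (median -0.36) and above 0 without WT replicate 3 (median 0.16). WT replicate 3 was the highest library in 4 of 4.

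Most of the other TOP mRNAs listed encode elongation and initiation factors and similar proteins of translation. Tpt1, Hnrnpa1, Nap1l1 and the non-coding Gas5 are also in the list. These RNAs share the pyrimidine start but have longer transcripts, with a median of 1876 bases. Of 14, 10 had a fitted value below 0 and 4 above (median -0.063), and without WT replicate 3 12 were above 0 (median 0.096). Their excess in WT replicate 3 had a median of 0.43 on the log2 scale, against 1.07 for the ribosomal protein rows. Eef1a1, the elongation factor that delivers aminoacyl-tRNA, stood at 2164, 2525 and 2932 RPKM in KO, against 2307, 2354 and 3106 RPKM in WT. Factors that assemble the ribosome or act in RNA polymerase I transcription had a median length of 2561.5 bases and a median excess in WT replicate 3 of 0.10. Of 48, 30 had a fitted value below 0 and 18 above (median -0.094), and without WT replicate 3 32 were below 0 and 16 above (median -0.052), so this list did not turn with the ribosomal proteins. In Nop2 and Lsg1, 2 of the 48, all KO libraries were lower than all WT libraries, and 2.36% of all tested rows were so. Nop2, a methyltransferase of large subunit ribosomal RNA, stood at 6.87, 7.75 and 7.56 RPKM in KO, against 8.0, 7.84 and 8.15 RPKM in WT. No gene of these lists passed the test.

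**Figure D5:**
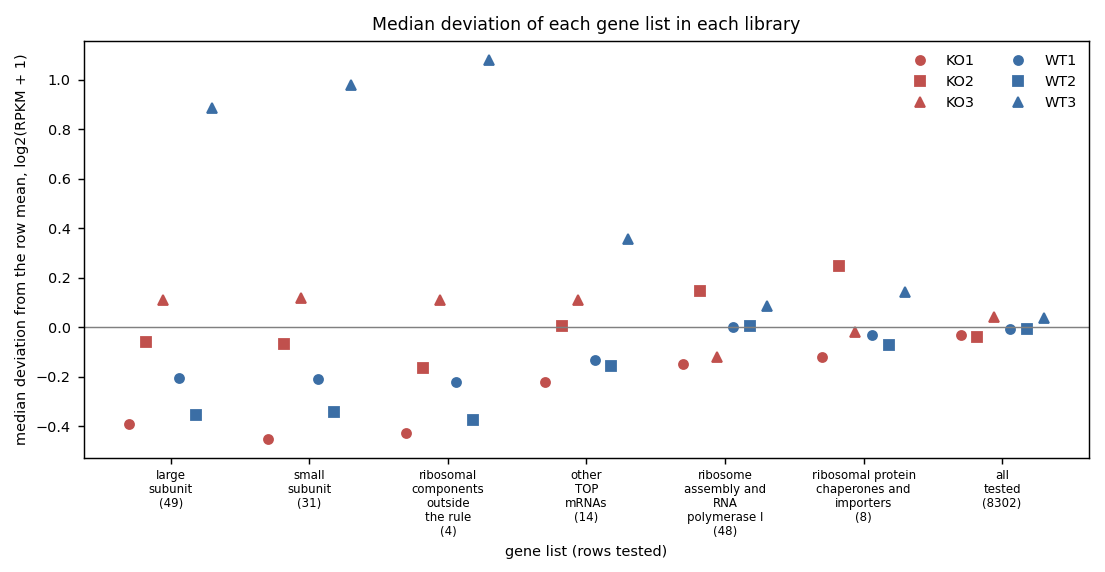
Median deviation from the row mean on the log2(RPKM + 1) scale for each gene list (number of rows in brackets) in the 3 KO libraries (red) and the 3 WT libraries (blue). WT replicate 3 lies highest for the ribosomal proteins, for the components outside the rule and, by less, for the other TOP mRNAs, while each library's median lies within 0.15 of 0 for the assembly factors.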

How the data were processed

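RNA was measured by sequencing in 3 Tfam KO and 3 Tfam WT libraries, made with a TruSeq RNA kit and read on a NextSeq 500 per the labels' protocols. The authors deposited RPKM values, made with TopHat and Cufflinks on build mm9 per the submitters' processing notes. Their versions, the annotation, the strand setting and the read totals are, in the sources used here, not given. Since RPKM depends on transcript length, short transcripts can shift together in a library that covers lengths differently. Whether this was so in any library here was not tested. Of 23119 rows, 25 had a number as a name (mean 0.158% of the RPKM sum) and were left out, and 7226 of the named rows are listed at 0 in every library.

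The 8302 rows with a mean of at least 1 RPKM were transformed to log2(RPKM + 1) and tested in R 4.3.3 with limma 3.58.1, using all 6 libraries without a block, a trend of the variance on the mean, and Benjamini-Hochberg adjustment over all these rows. Fold changes are on that scale, which understates changes of low genes, and intervals are 95%. The adjusted p-values in the text are from limma. Tfam was compared with an exact permutation test. The test was tested on simulated data. Absolute depth is unknown, so no counting interval is given. Steps between low values put the depth of KO replicates 1 to 3 at 93.0%, 84.4% and 80.4% of that of WT replicate 2. WT replicate 1 came to 88.9% of it, while WT replicate 3 was not resolved. In KO replicate 1 only 44.3% of the values used lay on whole-read steps, so its figure is less certain. In KO replicates 2 and 3 and WT replicate 1 the share was 80.3% to 82.1%.

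Transcript lengths are medians over GENCODE M21 transcripts matched by symbol, found for 80 of 80 ribosomal protein rows and 99.6% of tested rows, and the length trend was removed per library with a lowess curve (span 0.3). The members, the marker and pathway lists, and the rule by which genes are named, were chosen with earlier results of these data known. The rule takes the highest and lowest rows of each subunit, the largest fold changes in each direction, the P stalk, paralog pairs, the anemia genes and the smallest and largest spread. As no fold change was above 0, the 4 nearest to 0 stand for the positive ones. Rows named because the groups did not overlap, and examples from the other lists, were chosen after their values were seen. A few genes that enter the counts are not reported here by name.

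Deviations from the group means correlated at 0.46, 0.17 and 0.53 between libraries numbered 1, 2 and 3 in both groups. KO replicate 1 also correlated with WT replicate 2, at 0.40. Each same-numbered correlation was above 0.1, so libraries with the same number were paired in the replicate block and in the pair counts. The main fit was not paired. This pairing comes from the check and not from a label. As the 0.40 also lies above 0.1, the check does not establish it. Alternatives were the replicate block, leaving out each library, other pseudocounts and filters, quantile normalization, median scaling and removal of the length trend. Figures were drawn with matplotlib 3.10.9 in Python 3.11.15.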

Additional observations from a re-analysis of the deposited data

How the results depend on the processing

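The 0 of 80 ribosomal protein rows past the adjusted p held under all alternatives run, with a lowest adjusted p of 0.660 in limma (without WT replicate 2). The family's median log2 fold change ran from -0.46 to 0.16 when each library was left out in turn (large subunit -0.45 to 0.16, small subunit -0.50 to 0.16), and only leaving out WT replicate 3 turned it above 0. Without KO replicate 1 it was -0.090, with 6 of 80 rows higher in KO. It was 0.023 after quantile normalization and 0.038 with the length trend removed. Without both libraries numbered 3 it was 0.044. Scaled to the ribosomal protein rows it was 0.007, a value near 0 by construction. The SD of library medians inside the groups, 0.53, is from all libraries without these adjustments. It is therefore no measure for these settings. A pseudocount of 0.1, no filter on low values, a mean of at least 5 RPKM and scaling over all tested rows left every tested ribosomal protein row below 0.

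With the replicate block for the pairing the median stayed at -0.23 and 0 rows were called, and 1 row (Rpl39l, adjusted p = 0.715 in limma) lay under an unadjusted p of 0.05, as did 324 of all 8302 tested rows. The block changed no call.

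Tfam turned to 0.069 when scaled to the ribosomal protein rows and ran from -0.24 to 0.0032 with libraries left out. The signs of Rpl4, Rpl5, Rpl22l1 and Rpl15 turned under several settings. Without both libraries numbered 3 they were at 0.080, 0.11, 0.25 and 0.038, after quantile normalization at 0.15, 0.15, 0.19 and 0.16, scaled to the ribosomal protein rows at 0.15, 0.17, 0.19 and 0.20, and with the length trend removed at 0.076, 0.021, 0.30 and 0.066. With libraries left out, Rpl4 ran from -0.24 to 0.17, Rpl5 from -0.22 to 0.20, Rpl22l1 from -0.26 to 0.32, Rpl15 from -0.17 to 0.14, Rpl41 from -0.89 to 0.081 and Rps29 from -0.76 to 0.085. Apart from the library left out, the cause was not tested. With 3 libraries a group and no read counts, an interval such as that of Rpl41 (-1.94 to 0.90) leaves changes of that size undetectable here.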

Other observations

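No regulator of TOP mRNA translation and no dedicated carrier of ribosomal proteins among those tested passed the test. Eif4ebp1, a repressor of cap-dependent translation that mTORC1 switches off, stood at 11.8, 18.9 and 11.7 RPKM in KO, against 6.13, 11.2 and 15.0 RPKM in WT, and the groups overlapped. Larp1, which binds the start of TOP mRNAs, stood at 114, 85.6 and 92.1 RPKM in KO, against 93.6, 85.6 and 57.7 RPKM in WT. The 5 regulators had a median log2 fold change of 0.098 with all libraries and 0.017 without WT replicate 3. Of 9 chaperones and importers 8 were tested, with 5 above and 3 below 0 (median 0.041). The exception was Tsr2, the chaperone of Rps26 that is also mutated in human Diamond-Blackfan anemia, which stood at 0.923, 1.0 and 0.553 RPKM in KO, against 0.942, 0.653 and 0.645 RPKM in WT.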
